A study of Homo sapiens with 43 samples.

Results

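Heavy-fraction U2AF1 freCLIP was set against U2AF2 eCLIP in HEL cells, a human erythroleukemia line, to ask whether RNA recovered with U2AF1 from the heavy part of the gel carries the U2AF2 profile. The members were all 4 heavy freCLIP libraries and all 4 U2AF2 eCLIP libraries of cells with wild-type U2AF1, 8 of the 43 samples of the series. They were chosen by their labels. The 4 U2AF2 libraries were summed into 2 biological replicates, since libraries 1a and 2a were named as technical repeats. Every group came from cells stably transduced with U2AF1 wild-type (WT) and induced with doxycycline at 1 µg/ml over 48 hours, followed by ultraviolet crosslinking at 400 mJ/cm2. Heavy freCLIP used 12 µg of anti-FLAG antibody and the 65 to 110 kD part of the membrane. The 3 light freCLIP libraries, shown for reference, used the same antibody and the 37 to 65 kD part, and U2AF2 eCLIP used 8 µg of anti-U2AF2 antibody. Antibody, assay and membrane cut differ together between heavy freCLIP and U2AF2 eCLIP and cannot be told apart.

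U2AF is the heterodimer that marks the 3′ splice site, the acceptor end of an intron. U2AF2, the large subunit, binds the polypyrimidine tract, and U2AF1, the small subunit, contacts the AG dinucleotide at the intron end. U2AF1 was the immunoprecipitated protein in freCLIP, and a heavier complex can hold U2AF1 together with crosslinked U2AF2. The tables give reads per annotated gene, so a shift of a few bases within a splice site is beyond their reach. The comparison is one of how these counts were spread over annotated genes. They held 1.47% to 1.89% of reads in heavy freCLIP, and 1.59% and 1.88% in U2AF2 eCLIP. A count need not give the crosslinking of the gene that names it, as set out below.

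The heavy libraries held 120733, 99734, 730996 and 629370 counts that named a gene, the light libraries 78987, 324150 and 172896, and the U2AF2 replicates 1434380 and 1024587. Heavy replicates 1 and 2 came from 7495217 and 5273022 reads and replicates 3 and 4 from 46912474 and 42700777 reads, so results are also given for each pair. Of 58347 rows (annotated genes), 7789 passed the filter on low counts. RNA-seq of the induced WT cells bore out the label: 19 of 20 erythroid and 18 of 20 megakaryocyte markers exceeded 1 CPM (counts scaled to a common library size), against 4 of 11 lymphoid and 3 of 10 monocyte and granulocyte markers. KRT18 at 91.2 CPM led the stromal and epithelial markers, of which 2 of 10 exceeded 1 CPM.

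The crosslinking counts of a row appeared to follow the strand opposite to the gene that names it. ACTB, among the most abundant mRNAs at 3173 CPM in RNA-seq, had 1 count over the heavy libraries and 1 over the U2AF2 libraries, and the ribosomal stalk gene RPLP0 had 0 and 0. The 200 most abundant nuclear RNAs made up 19.0% of RNA-seq counts, but 0.673% of heavy and 0.602% of U2AF2 counts. GAPDH itself had 45 heavy and 29 U2AF2 counts, while AC006064.4, an antisense row across GAPDH, averaged 3818 ± 1228 CPM in heavy libraries and 2214 ± 248 CPM in U2AF2 libraries (SD, n = 4 and n = 2). Rows with an exon within 50 bases of an annotated acceptor of a gene on the other strand were 10.2% of rows and held 18.7% of RNA-seq counts, yet they took 50.1% of heavy and 56.0% of U2AF2 counts. Each row is therefore described with the gene that lies opposite, and genes with nothing annotated on their other strand are measured poorly or not at all. Over 4536 tested rows with a single gene opposite, heavy counts had a Spearman coefficient of 0.292 with RNA-seq of the opposite gene. With RNA-seq of the row's own gene it was 0.0696. For U2AF2 counts the coefficients were 0.237 and 0.185, so over these rows the relation was weak and the strands little apart. The U2AF1 row had 0, 0, 4 and 1 counts in heavy libraries and 0 and 0 in U2AF2 libraries, and the U2AF2 row had 0, 1, 5 and 0 in heavy libraries and 24 and 11 in U2AF2 libraries. Both rows fell under the filter and give no check of the immunoprecipitated protein.

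Heavy libraries ranked the rows more like U2AF2 eCLIP than light libraries did. The Spearman coefficient with the summed U2AF2 counts over the 7789 rows was 0.833, 0.820, 0.777 and 0.709 in heavy replicates 1 to 4, and 0.605, 0.622 and 0.572 in light replicates 2 to 4. All heavy libraries lay above all light libraries. The means were 0.785 ± 0.0562 in heavy and 0.600 ± 0.0252 in light libraries (SD, n = 4 and n = 3), a difference of 0.185. A two-sided exact permutation test gave p = 0.0571, the smallest that 4 against 3 libraries allow, and 0.0735 when adjusted over 9 measures of likeness. The U2AF2 replicates, at their greater depth, had a coefficient of 0.962 with each other.

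Depth moved the coefficients, but the heavy libraries stayed above the light ones. With every library thinned to 78987 counts, heavy replicates 1 to 4 had 0.741, 0.740, 0.658 and 0.617 with equally thinned U2AF2 counts, and light replicates 2 to 4 had 0.569, 0.565 and 0.527 (difference 0.135, exact permutation p = 0.0571, the same limit). The 2 U2AF2 replicates, each thinned to that depth, had 0.792 with each other. The shallow heavy replicates 1 and 2 were the closest to U2AF2 eCLIP, and the deep replicates 3 and 4 the farthest among the heavy libraries. Agreement within the fractions differed as well. At full depth, coefficients between pairs of heavy libraries ran from 0.684 to 0.796, and between pairs of light libraries from 0.413 to 0.494. After thinning they ran from 0.639 to 0.738 and from 0.408 to 0.469. The part of this lower agreement among light libraries in their lower coefficient with U2AF2 eCLIP was not tested. Thinning equalizes counts, not the number of rows they cover. At full depth heavy replicates 1 to 4 had counts in 12821, 11601, 18393 and 14894 rows, and light replicates 2 to 4 in 6683, 11225 and 8580. The part of this difference in the coefficients was not tested either.

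**Figure D1:**
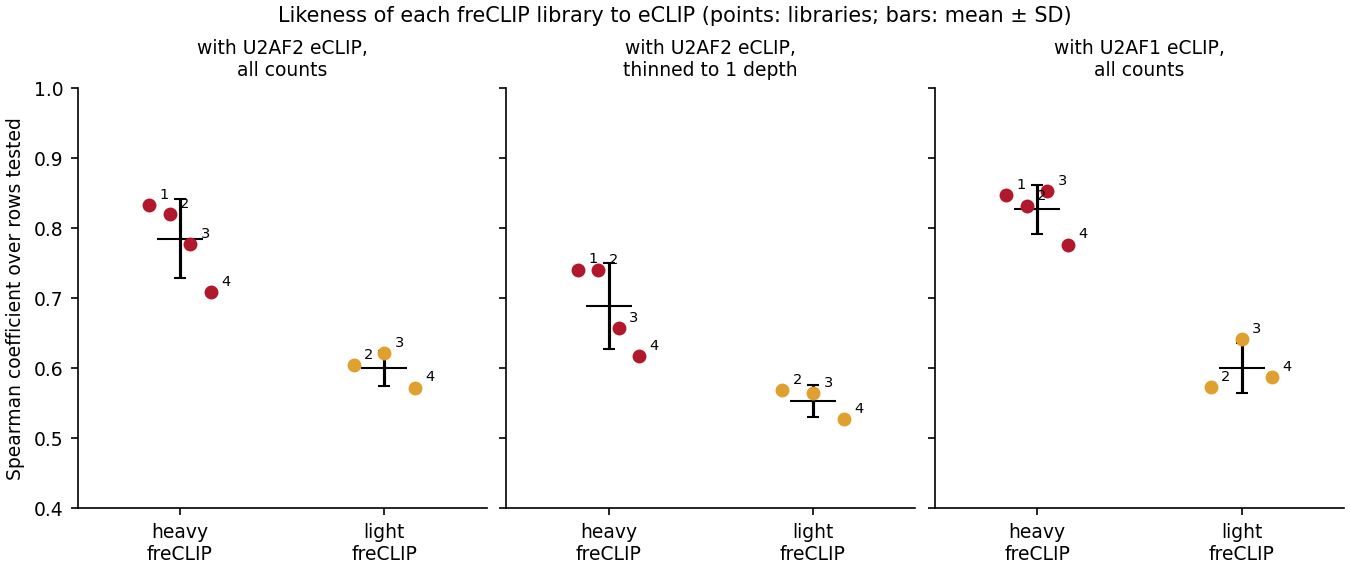
Spearman coefficient of each freCLIP library with summed eCLIP counts over 7789 rows, with heavy libraries left and light libraries right (points are libraries with their replicate number, bars are mean ± SD). Heavy libraries sit above light libraries against U2AF2 eCLIP with all counts (0.709 to 0.833 against 0.572 to 0.622), after thinning (0.617 to 0.741 against 0.527 to 0.569) and against U2AF1 eCLIP. The vertical axis starts at 0.4.

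Whether the heavy profile was closer to U2AF2 eCLIP or to U2AF1 eCLIP of the same cells depended on the U2AF1 replicate. Against the summed U2AF1 eCLIP counts (2189817 from replicate 1 and 306711 from replicate 2), heavy replicates 1 to 4 had coefficients of 0.848, 0.832, 0.853 and 0.777, each above its value against U2AF2 eCLIP. After thinning the order held in 4 of 4 heavy libraries, with 0.746, 0.743, 0.715 and 0.669 against U2AF1. Against U2AF1 replicate 2 alone the order was reversed, with 0.590, 0.602, 0.689 and 0.651 in heavy replicates 1 to 4 (thinned 0.555, 0.567, 0.614 and 0.590), each below that library's value against either U2AF2 replicate. U2AF1 replicate 2 also stood apart from the other eCLIP libraries. It had 0.676 with U2AF1 replicate 1 (thinned 0.602), and 0.626 and 0.615 with the U2AF2 replicates. U2AF1 replicate 1 had 0.924 and 0.899 with the U2AF2 replicates. Light replicates 2 to 4 had 0.573, 0.641 and 0.587 against the summed U2AF1 counts. The heavy minus light difference was 0.227 against U2AF1 and 0.185 against U2AF2 eCLIP, or 0.170 and 0.135 after thinning. Heavy libraries were thus closer than light ones to both eCLIP profiles, not to that of U2AF2 alone. Heavy freCLIP and U2AF1 eCLIP share the anti-FLAG antibody, so protein and antibody cannot be told apart here. The most counted rows were largely common: of the 200 most counted rows of heavy replicates 1 to 4, 155, 154, 132 and 133 were among the 200 most counted of U2AF2 eCLIP, against 131, 132 and 135 for light replicates 2 to 4.

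The rows with the most U2AF2 counts, of which 7 of the first 8 are given, show both the likeness and its limits. TTN, whose row lies opposite TTN-AS1 and its spliced exons, had 4428, 5156, 4497 and 4234 CPM in heavy libraries, against 5587 and 5159 CPM in U2AF2 libraries. The groups lay side by side without overlapping, and the log2 difference of -0.23 (SE 0.24) did not pass the test (edgeR adjusted p = 1). MFSD11, opposite the splicing factor gene SRSF2, had 3064, 3975, 3182 and 3905 CPM in heavy and 5497 and 5335 CPM in U2AF2 libraries. AL135999.1, opposite AP1G2, a subunit of a clathrin adaptor, had 5089, 5630.1, 3987 and 3876 CPM in heavy and 7201 and 7570.4 CPM in U2AF2 libraries. In both rows every heavy library lay below both U2AF2 libraries, with log2 differences of -0.62 (SE 0.25) and -0.67 (SE 0.25) that did not pass (edgeR adjusted p = 1 for each). NEIL1, a DNA repair glycosylase gene opposite the mannosidase gene MAN2C1, averaged 2574 ± 508 CPM in heavy and 4194 ± 48.7 CPM in U2AF2 libraries (log2 -0.71, SE 0.26, edgeR adjusted p = 1).

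In other abundant rows the shallow and the deep heavy libraries differed. TTI2, opposite MAK16, whose yeast counterpart works in ribosome assembly, had 13629 and 16342 CPM in heavy replicates 1 and 2, 5666 and 6473 CPM in heavy replicates 3 and 4, and 4605 and 6717 CPM in U2AF2 libraries. Only the shallow pair stood above U2AF2 eCLIP. MYH7B, a myosin heavy chain gene opposite TRPC4AP, had 3158 and 4196 CPM in heavy replicates 1 and 2, 1758 and 1767 CPM in replicates 3 and 4, and 5307 and 5263 CPM in U2AF2 libraries. LRRC24, opposite LRRC14, likewise had 2179.9 and 2509 CPM, then 1175 and 1055 CPM, in heavy libraries and 3992 and 4419 CPM in U2AF2 libraries. None of these 3 rows passed the test (edgeR adjusted p = 1 for each).

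Row by row, few differences passed. The spread between replicates was wide (common biological coefficient of variation 0.628) and U2AF2 eCLIP had 2 replicates, so few calls do not show that the profiles are the same. Of 7789 rows, 4 were called between heavy freCLIP and U2AF2 eCLIP at an adjusted p under 0.05 (0.0514%), 2 higher and 2 lower (0.0257% each), and 285 had an unadjusted p under 0.05 (3.66%). Between light freCLIP and U2AF2 eCLIP, which shares the U2AF2 libraries, 7 were called (0.0899%), 3 higher (0.0385%) and 4 lower (0.0514%), with 875 at an unadjusted p under 0.05 (11.2%). Between heavy and light freCLIP 2 were called (0.0257%), 1 in each direction (0.0128% each), with 1033 at an unadjusted p under 0.05 (13.3%). For heavy against U2AF2, RLE scaling or library size alone left 2 higher and 0 lower rows, and with only heavy and U2AF2 libraries in the fit 50 of 9546 rows were called (0.524%), 15 higher (0.157%) and 35 lower (0.367%). In that fit 1477 of the 9546 rows had an unadjusted p under 0.05. Fits of only the groups compared gave 358 of 5795 for light against U2AF2 and 292 of 3851 for heavy against light. The order of the 3 comparisons by unadjusted p thus depended on the fit. Without heavy replicate 2, 3 or 4, or without U2AF2 replicate 2, edgeR called 0 rows (136 to 324 at an unadjusted p under 0.05). Without heavy replicate 1 it called 2 and without U2AF2 replicate 1 it called 7, all lower. DESeq2 with all libraries called 32, of which 23 were higher and 9 lower, the opposite balance to the fit of only heavy and U2AF2 libraries.

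MT-ND6 (ENSG00000198695.2, chrM:14149-14673, minus strand), which encodes a subunit of respiratory complex I, had 3107, 4165, 4092 and 4712 CPM in heavy libraries, 8525, 9354 and 8143 CPM in light libraries, and 1105 and 1328 CPM in U2AF2 libraries. The 3 groups did not overlap. It rose 3.31-fold in heavy libraries over U2AF2 libraries (log2 1.72, SE 0.31, edgeR adjusted p = 0.0454). Read on the opposite strand, its row holds RNA of the mitochondrial strand that carries most of the other genes. Heavy stood at -1.11 against light on the log2 scale, which did not pass (edgeR adjusted p = 0.132).

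HEATR1 (ENSG00000119285.10, chr1:236549005-236604504, minus strand), a gene for a factor of ribosomal RNA synthesis, lies opposite the galectin gene LGALS8. It had 103, 94.9, 109.7 and 73.7 CPM in heavy libraries, 314, 65.5 and 141 CPM in light libraries, and 543 and 773 CPM in U2AF2 libraries. It fell 6.92-fold in heavy libraries (log2 -2.79, SE 0.53, edgeR adjusted p = 0.0454), and all 4 heavy libraries lay below both U2AF2 libraries. AC015813.5 (ENSG00000279069.1, chr17:58006674-58008187, plus strand), opposite SRSF1, which encodes a splicing activator of the SR family, had 858, 991, 803 and 908 CPM in heavy and 2599 and 2996 CPM in U2AF2 libraries. It fell 3.15-fold (log2 -1.65, SE 0.31, edgeR adjusted p = 0.0454), and light libraries at 1655, 1154 and 815 CPM overlapped the heavy ones. ANP32BP3 (ENSG00000259461.1, chr15:81117635-81118340, minus strand), a processed pseudogene opposite CFAP161, had 240.3, 274, 476 and 399 CPM in heavy libraries, 94.3, 211 and 312 CPM in light libraries, and 35.1 and 28.9 CPM in U2AF2 libraries. Its 10.9-fold rise (log2 3.45, SE 0.63, edgeR adjusted p = 0.0454) is uncertain in origin, because a processed pseudogene is a near copy of its parent mRNA. None of the 4 rows lies opposite an annotated acceptor. The rule for named rows gave MT-ND6 and HEATR1, and the other 2 are named because the calls were so few.

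**Figure D2:**
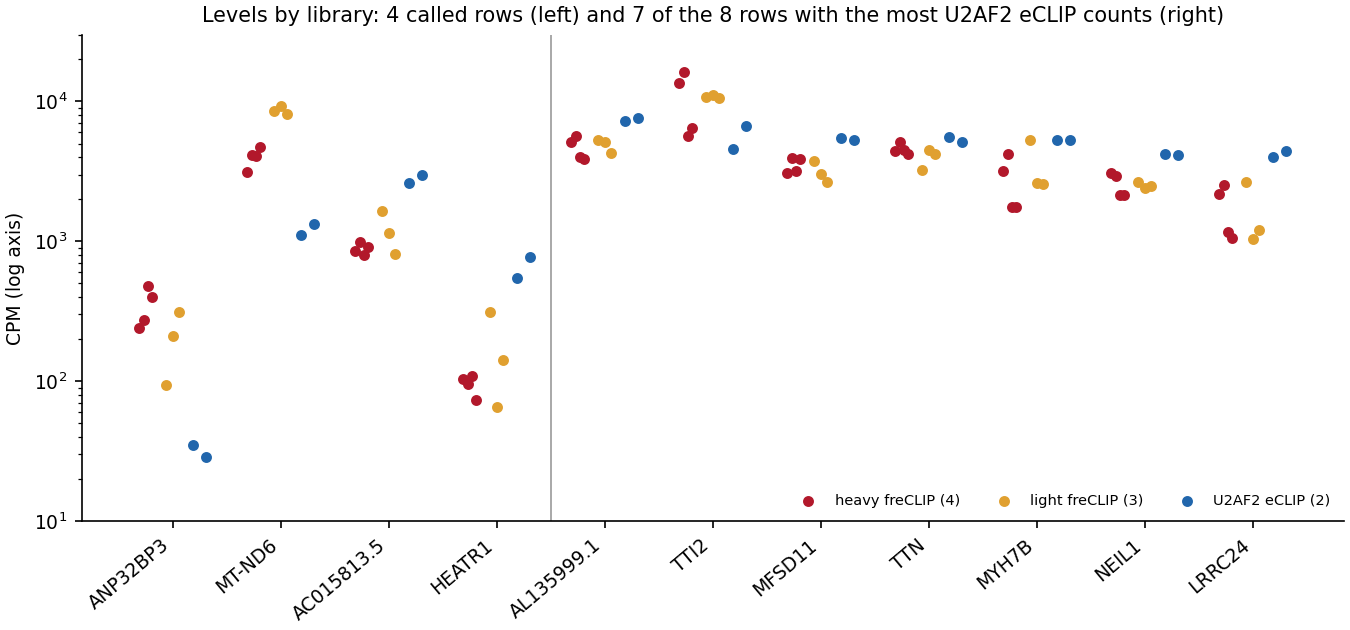
CPM of each library on a log axis for the 4 called rows (left of the line) and 7 of the 8 rows with the most U2AF2 eCLIP counts (right), with heavy, light and U2AF2 libraries from left to right within each row. In the called rows the heavy points are clear of the U2AF2 points, at 3107 to 4712 CPM against 1105 and 1328 CPM for MT-ND6, whereas TTN lies at 4234 to 5156 against 5159 and 5587 CPM.

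The clearest pattern over many rows concerned 3′ splice sites. The 2622 rows tested that lie opposite an annotated acceptor had a median log2 fold change of -0.25 for heavy over U2AF2, against 0.15 for 3545 rows opposite a gene but no acceptor, 0.22 for 1578 rows opposite no gene and 0.01 for all 7789 rows. The more acceptors a row faced, the lower was its class median: -0.20 for 1 acceptor, -0.29 for 2 to 4 and -0.43 for 5 or more. Among rows with a mean log2 CPM of at least 6, the medians were -0.27 with an acceptor, 0.09 opposite a gene without one and 0.15 opposite no gene. For heavy over light the medians were 0.19, 0.19 and 0.08 with 1, 2 to 4 and 5 or more acceptors, and 0.19 for all rows. The gap between rows with an acceptor and other nuclear rows was then -0.0043, but -0.21 without light replicate 3, -0.17 with the replicate number as a block and 0.19 with no filter on low counts, so heavy over light gave no stable gap. Every heavy library lay below both U2AF2 libraries in 29.2% of rows opposite an acceptor and in 55.8% of those opposite 5 or more, against 17.1% of all rows (1335 rows). Every heavy library lay above both in 4.84% of rows opposite an acceptor, against 9.4% of all rows (732 rows), and the groups did not overlap in 26.5% of all rows.

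The same shift stood in the raw shares of each library. Rows opposite an acceptor took 51.4%, 52.3%, 49.8% and 49.8% of gene counts in heavy replicates 1 to 4, 52.6%, 48.8% and 50.5% in light replicates 2 to 4, and 57.0% and 54.5% in the U2AF2 replicates. Heavy averaged 50.8 ± 1.24% and U2AF2 55.8 ± 1.75% (SD, n = 4 and n = 2), and the groups did not overlap. With 4 against 2 libraries the exact permutation p was 0.133, the smallest possible, and 0.211 adjusted over 19 shares. U2AF1 eCLIP had 51.4% and 49.5%, the second just below the lowest heavy library. The log2 gap between rows with an acceptor and the other nuclear rows, each library taken against the U2AF2 mean, was -0.30, -0.23, -0.43 and -0.39 in heavy replicates 1 to 4 and -0.32 and -0.28 in the U2AF1 eCLIP replicates. In light replicates 2 to 4 it was 0.25, -0.32 and 0.03, so light libraries disagreed on it. The fitted gap for light over U2AF2 was nevertheless -0.43, as for heavy over U2AF2, and -0.42 with RLE scaling. It was -0.18 without light replicate 3, -0.07 with the replicate number as a block and 0.48 with no filter on low counts. Under RLE scaling the median of all rows moved to 0.15 and that of rows opposite an acceptor to -0.11, with the gap between them and other nuclear rows at -0.42, against -0.43 with TMM. With no filter on low counts the gap was 0.00068 over 38605 rows, so the direction holds for rows that passed the filter.

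**Figure D3:**
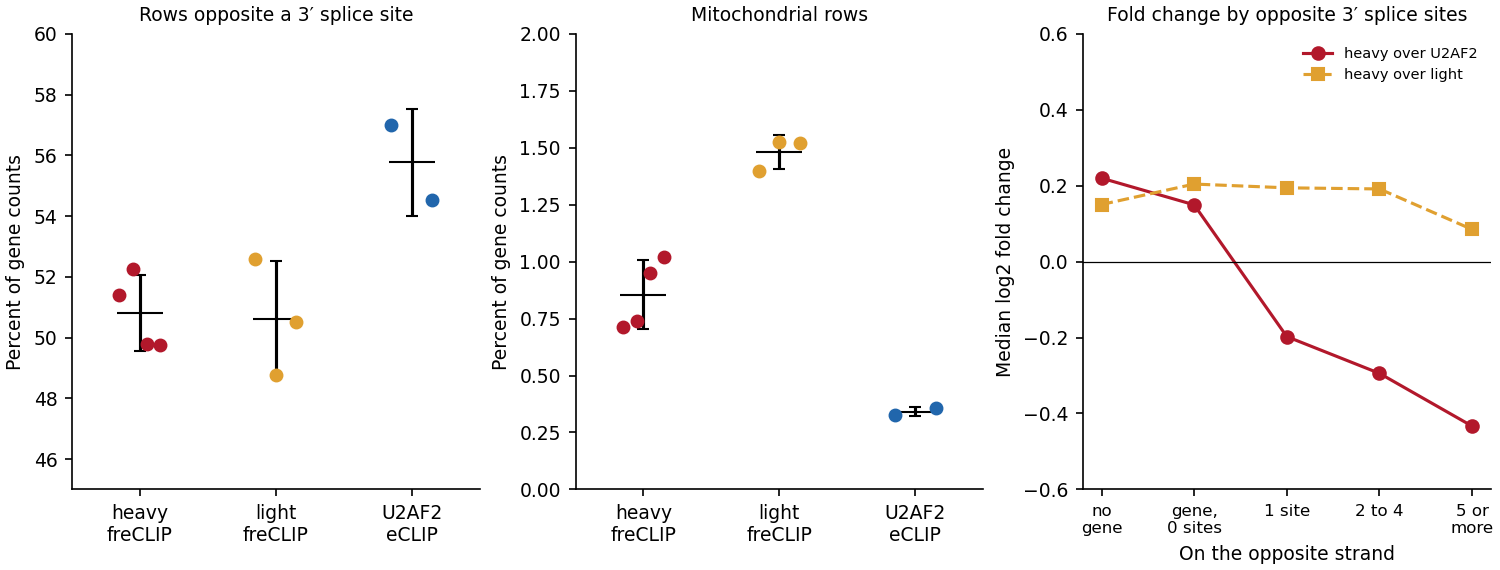
Left and centre, percent of each library's gene counts in rows opposite an annotated 3′ splice site (axis from 45%) and in mitochondrial rows, with points for libraries and bars for mean ± SD. Heavy libraries lie at 49.8% to 52.3% and U2AF2 libraries at 54.5% and 57.0% on the left. Right, median log2 fold change by what lies on the opposite strand, at -0.43 for heavy over U2AF2 at 5 or more sites and between 0.08 and 0.20 for heavy over light.

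Rows with a gene opposite but no acceptor took 33.4 ± 0.445% of heavy and 29.8 ± 0.161% of U2AF2 counts. Light libraries, at 31.9 ± 0.129%, and U2AF1 eCLIP, at 33.2% and 31.9%, also lay above U2AF2 eCLIP. Mitochondrial rows, from RNA that has no spliceosomal intron, took 0.715%, 0.739%, 0.948% and 1.02% in heavy, 1.40%, 1.52% and 1.52% in light, and 0.327% and 0.355% in U2AF2 libraries. Heavy thus lay between the light fraction and U2AF2 eCLIP without overlap (exact permutation p = 0.133 against U2AF2 and 0.0571 against light, each the smallest possible, and 0.211 and 0.155 adjusted over 19 shares). U2AF1 eCLIP had 1.12% and 0.955% of its counts in mitochondrial rows, so the excess over U2AF2 eCLIP was not particular to heavy freCLIP. The median log2 fold change of these rows was 1.31 for heavy over U2AF2 and 1.60 for U2AF1 over U2AF2 eCLIP. Of 18 mitochondrial rows tested, MT-ND6 was the only one called. In 12 of them (66.7%) every heavy library lay above both U2AF2 libraries, against 9.4% of all rows. MT-ND5 averaged 1799 CPM in heavy and 1050.5 CPM in U2AF2 libraries (log2 0.78, edgeR adjusted p = 1), and MT-CO1, a catalytic subunit of complex IV, 190.2 and 63.5 CPM (log2 1.61, edgeR adjusted p = 1). Processed pseudogenes, intronless copies of mRNAs, took 5.59 ± 0.518% of heavy and 4.14 ± 0.104% of U2AF2 counts. They took 4.65%, 5.42% and 5.14% in light replicates 2 to 4, and 5.73% and 5.96% in U2AF1 eCLIP. Their 674 tested rows had a median log2 fold change over U2AF2 of 0.51 for heavy, 0.23 for light and 0.50 for U2AF1 eCLIP. The higher share was thus not particular to heavy freCLIP.

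**Figure D4:**
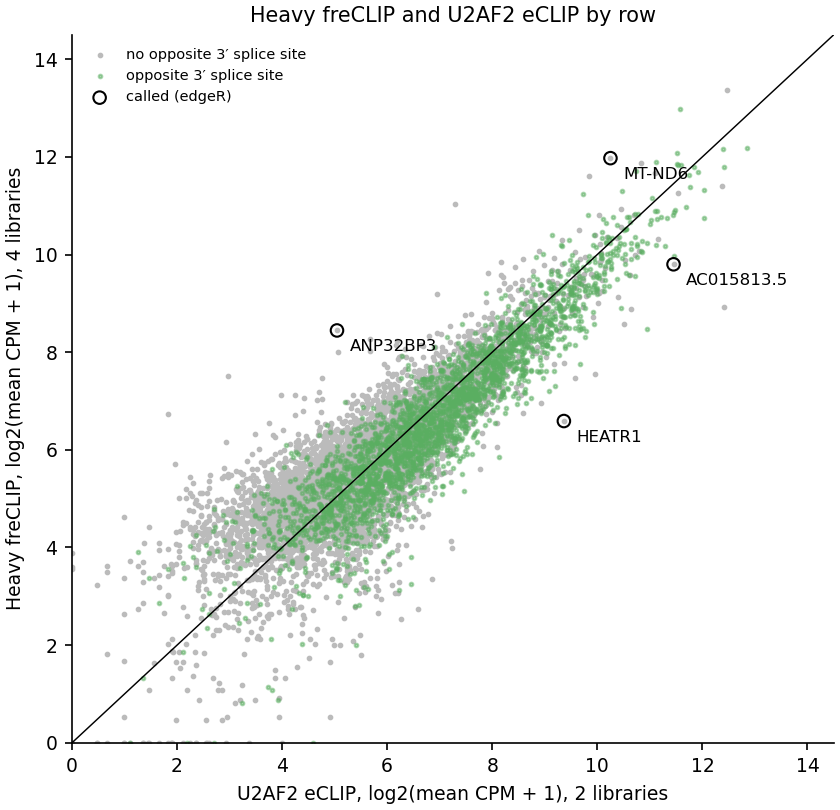
Mean level of each of 7789 rows in 4 heavy freCLIP libraries (vertical) and 2 U2AF2 eCLIP libraries (horizontal), as log2(mean CPM + 1), with the line of equality. Rows opposite a 3′ splice site (green) lie mostly below the line, with 34.3% of them above a log2 fold change of 0, and the 4 called rows are ringed.

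With only heavy and U2AF2 libraries in the fit, the 35 rows called lower included 25 opposite an acceptor, and the 15 called higher included 1, against 30.8% of the 9546 rows tested. Of the 15 higher rows 7 were processed pseudogenes, which were 9.51% of rows tested. AC138028.4, opposite the mechanosensitive channel gene PIEZO1, had 1493, 1202, 648 and 649 CPM in heavy and 2940.5 and 2718 CPM in U2AF2 libraries. Every heavy library lay below, and the row was called in this fit (log2 -1.58, edgeR adjusted p = 0.0415) but not with all libraries (log2 -1.52, edgeR adjusted p = 0.392). AC008105.1, opposite FMNL1, a formin that builds actin filaments, had 180.2, 169, 156 and 126 CPM in heavy and 562 and 600.5 CPM in U2AF2 libraries (log2 -1.95, edgeR adjusted p = 0.00644 in this fit and 0.392 with all libraries). AC010761.1, opposite the ribosomal protein gene RPL23A, had 438, 264, 346 and 478 CPM in heavy and 1142 and 816 CPM in U2AF2 libraries (log2 -1.38, edgeR adjusted p = 0.0415 and 0.491). TSNAXIP1, opposite the kinetochore gene CENPT, averaged 195 ± 34.2 CPM in heavy and 579 ± 36.9 CPM in U2AF2 libraries (edgeR adjusted p = 0.0228 and 0.428).

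Abundant rows opposite acceptors were not all lower. AL135960.1, opposite TAL1, a transcription factor of erythroid cells, had 3218, 3796, 3801 and 3682 CPM in heavy and 3065 and 2858 CPM in U2AF2 libraries (log2 0.29, SE 0.27, edgeR adjusted p = 1). AC009133.1, opposite the zinc finger gene MAZ and others, had 4454, 3838, 4422 and 4507 CPM in heavy and 2808 and 3044 CPM in U2AF2 libraries, with every heavy library above (log2 0.56, SE 0.26, edgeR adjusted p = 1). LENG9, opposite LENG8, had 4377, 8203, 9386 and 10474 CPM in heavy and 2782 and 3311 CPM in U2AF2 libraries, again without overlap (log2 1.41, SE 0.41, edgeR adjusted p = 0.541). AC008735.2, opposite U2AF2 itself but not one of its acceptors, averaged 860.1 ± 174 CPM in heavy and 344 ± 36.3 CPM in U2AF2 libraries (log2 1.33, SE 0.40, edgeR adjusted p = 0.556, and 0.0489 with only both groups in the fit).

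Acceptors opposite these rows are shown as examples of annotated sites that the rows face, 1 for each row and chosen after the values were seen. Counts per gene do not show whether reads fell at them. Of the 7 rows, AL135960.1 alone was not lower in the heavy libraries. Each is the 3′ splice site of the opposite gene, 25 intron bases and 5 exon bases on GRCh38, read from the GENCODE 29 transcript of the row as its reverse complement, with base -3 and the AG in capitals. The first 4 belong to rows called lower with only heavy and U2AF2 libraries in the fit.
PIEZO1, opposite AC138028.4, chr16:88720279-88720308, minus strand: ctgacctgtgctctcctggccaCAGaagca
FMNL1, opposite AC008105.1, chr17:45238930-45238959, plus strand: atctccccatgtccctggctccCAGgtggc
RPL23A, opposite AC010761.1, chr17:28722698-28722727, plus strand: ggtgaccccattttgcctctccCAGgcttg
CENPT, opposite TSNAXIP1, chr16:67832104-67832133, minus strand: caccctctccttggtgtttctgCAGcccca
SRSF2, opposite MFSD11, chr17:76735871-76735900, minus strand: acgtctgcattttccccctttaAAGctgcg
AP1G2, opposite AL135999.1, chr14:23561427-23561456, minus strand: ctgccccttctgtcccttctgcCAGgcctc
TAL1, opposite AL135960.1, chr1:47228518-47228547, minus strand: ggtcttctgtcttgttctggcaCAGgtgga

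The 7 were picked from acceptors kept because they have AG, so their AG follows from the choice. That 6 of the 7 have CAG is likewise no result about the rows. Most of these rows face several acceptors, and others of the same rows held fewer pyrimidines, down to 35.3% of bases -20 to -4 opposite AC008105.1 and 41.2% opposite AC138028.4. Of 4000 acceptors that could be read this way, opposite 2190 rows tested, 3961 had AG (99.0%), and pyrimidines made up 72.7 ± 13.2% (SD over acceptors) of bases -20 to -4. Base -3 was C in 68.9% and T in 21.4% of them. Opposite 20 of the rows called lower with only heavy and U2AF2 libraries in the fit, 43 of 48 AG acceptors had C at -3 (89.6%) and the mean pyrimidine share was 70.7%. Acceptors of 1 row share a transcript and are not independent, and no test was made. Over the 2181 rows with a readable AG acceptor, the row's mean pyrimidine share had a Spearman coefficient of 0.0016 with the log2 fold change of heavy over U2AF2, and the share of CAG one of -0.021. The 546 rows with the lowest fold changes had a mean pyrimidine share of 72.3 ± 11.5% (SD over rows) and the 545 with the highest 71.9 ± 13.5%. These rows share libraries, and the coefficients are a description.

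Gene lists read in both ways gave few calls. By the gene that names the row, MT-ND6 was the only call among 16 lists. By the opposite gene, AC015813.5 of the SR protein list was the only one, and 4 rows opposite SR proteins had a median log2 fold change of -0.28, against 0.01 for all rows. Rows opposite cytosolic ribosomal proteins (30 rows, 26 genes) had a median of 0.01, with 16 above 0. Rows opposite hnRNP proteins (14 rows) had 0.15, and COX20, opposite HNRNPU, a nuclear matrix RNA-binding protein, averaged 1744 ± 449 CPM in heavy and 1524 ± 155 CPM in U2AF2 libraries (edgeR adjusted p = 1). Rows opposite snoRNA host genes (14 rows) had -0.19 and those opposite megakaryocyte and platelet markers (12 rows) 0.49, of which AC037198.2, opposite the thrombospondin gene THBS1, had 463 and 517 CPM in heavy replicates 1 and 2, 3201 and 2989 CPM in heavy replicates 3 and 4, and 938 and 869 CPM in U2AF2 libraries (edgeR adjusted p = 1). The shallow heavy pair lay below both U2AF2 libraries and the deep pair above both. Of the rows opposite U2AF family and 3′ splice site factors (7 rows), 3 were above 0 and the median was -0.33. Nuclear-retained long noncoding RNAs had 27 rows opposite and a median of -0.02, and their own rows included FTX at 918 ± 81.0 CPM in heavy and 778 ± 65.8 CPM in U2AF2 libraries (edgeR adjusted p = 1). Erythroid markers (7 rows opposite) had a median of 0.14, replication-dependent histone genes (4 rows) -0.72 and other intronless coding genes (7 rows) -0.92. Of these edgeR called 0 with all libraries, and 1 row opposite the intronless genes was called lower with only heavy and U2AF2 libraries in the fit.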

How the data were processed

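The deposited tables hold unnormalized read counts for annotated genes, per the file headers and values, and end in 4 lines for reads without a gene. These counts named a gene for 1.47% to 1.89% of reads in heavy freCLIP and 1.59% and 1.88% in U2AF2 eCLIP, and those 4 lines entered neither library sizes nor tests. The submitters' processing notes name STAR 2.7.0f and 2.5.3a, HTSeq, cutadapt and GRCh38.p10 without roles. The annotation release and the strand setting are not given in the sources used here. IDs were matched to GENCODE 29 (58084 of 58347). The main test was edgeR 4.0.16 in R 4.3.3 (TMM, filterByExpr with a minimum count of 10, robust quasi-likelihood F test, Benjamini-Hochberg threshold 0.05) on heavy, light, U2AF2 and U2AF1 libraries of induced WT cells, with 1 mean per group. Levels are CPM after TMM. Acceptors were taken from annotated introns. Permutation tests used scipy. The tests were checked on simulated data. The members, gene lists and acceptor classes were chosen with earlier results of these data known.

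Named rows were U2AF1 and U2AF2, then up to 8 called rows in each direction whose libraries do not overlap, leaving out pseudogenes, clone-named rows and rows under a mean log2 CPM of 6, the 8 rows with the most U2AF2 counts, and 1 or 2 members of each list. One row that the rule names is not reported here. Other rows were named after their values were seen. The 16 lists were U2AF family and 3′ splice site factors, SR proteins, hnRNP proteins, nuclear small RNAs, mitochondrial genes, histones, other intronless genes, nuclear-retained long noncoding RNAs, snoRNA hosts, ribosomal proteins, globins, and markers of erythroid, megakaryocyte, monocyte and granulocyte, lymphoid, and stromal and epithelial cells. Replicates are called biological in the labels, which do not mention separate cultures, so p-values measure the spread between these libraries, which may be technical in part. U2AF2 libraries 1 and 1a, and 2 and 2a, differed little beyond sampling noise (chi-square per degree of freedom 1.09 and 1.07, against 2.60 between replicates 1 and 2) and were summed. The counts are of reads, with no molecular identifiers in the tables. Shared replicate numbers were not treated as pairs in the main test. Alternatives were other scalings, filters, tools and subsets of libraries, including DESeq2 1.42.0.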

Additional observations from a re-analysis of the deposited data

Results flagged for a closer look

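In 2 of 49 outlier checks over the 4 heavy libraries, 1 library stood apart, and such checks flag about 1 in 20 groups by chance. The CD4 row, the gene of a T cell co-receptor, with no annotated gene opposite, was at 213 CPM in heavy replicate 3, against 94.4, 94.9 and 108 CPM in heavy replicates 1, 2 and 4 and 60.6 and 60.2 CPM in the U2AF2 replicates. The CSF1R row, a macrophage growth factor receptor gene, was at 60.1 CPM in heavy replicate 3, against 17.2, 21.1 and 23.4 CPM in the other heavy libraries and 31.1 and 21.98 CPM in the U2AF2 replicates. In RNA-seq of the induced WT cells the genes themselves were at 15.7 CPM for CD4 and 4.96 CPM for CSF1R.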

How the results depend on the processing

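All counts are of rows called by edgeR unless another tool is named. For heavy against U2AF2, light against U2AF2 and heavy against light (4, 7 and 2 called), the replicate block gave 12, 13 and 43 rows, fits of only the groups compared 50, 1 and 4, RLE scaling 2, 2 and 4, DESeq2 32, 94 and 160, and no filter on low counts 12, 24 and 30. The replicate numbers were not treated as pairs: deviations of same-numbered heavy and U2AF2 libraries correlated at 0.031 and 0.023. Those of heavy and light replicates 2, 3 and 4 correlated at 0.102, 0.073 and 0.056. The permutation tests took heavy and light libraries as independent. Library size alone gave 2 for heavy against U2AF2. Group means of at least 10 counts gave 0 and 1 for heavy and light against U2AF2, and nuclear protein-coding rows alone 0, 0 and 1. With the technical eCLIP repeats left out, heavy against U2AF2 had 0 calls. Unadjusted p under 0.05 was met by 248, 101 and 290 rows for heavy against U2AF2 in these 3 fits, and by 442 for light with coding rows alone. Without the U2AF1 eCLIP libraries heavy against light had 4 calls. With heavy replicates 1 and 2 alone, heavy had 0 calls against U2AF2 and 0 against light (72 and 506 at unadjusted p), and with replicates 3 and 4 alone 5 and 0 (1130 at unadjusted p for the second). Leaving out 1 library at a time gave 0 to 7, 6 to 58 and 0 to 28 calls. The causes were not tested.

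The gap between rows with an opposite acceptor and other nuclear rows, -0.43 for heavy over U2AF2, was -0.30 with the block, -0.24 in nuclear protein-coding rows, -0.33 with heavy replicates 1 and 2 alone and 0.00068 with no filter, and otherwise -0.51 to -0.39. The difference in likeness to U2AF2 eCLIP between heavy and light libraries was 0.0896 in S34F and 0.221 in Q157R cells, against 0.185 in WT cells. Of the shares, heavy minus U2AF2, leaving out 1 library moved reads naming a gene from -0.246 to 0.0444 percentage points, protein-coding rows from -1.22 to 0.165 and antisense rows from -2.20 to -0.985. None of the 12 rows followed singly changed sign, and MT-ND6 stayed called in 9 of 17 alternatives, ANP32BP3 in 9 of 17, HEATR1 in 6 of 18 and AC015813.5 in 6 of 17. Depth limits light replicate 2 most, with 78987 gene counts, and among heavy libraries replicates 2 and 1, with 99734 and 120733.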
